A study of Mus musculus with 20 samples.

Results

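The spliceosome core and Sm protein genes were followed in mouse hypothalamus, as 55 protein-coding genes of the 54532 genes in the count table. Members were chosen by symbol, as genes named Sf3a or Sf3b, Prpf, Snrp, Snrnp or Lsm with their numbers, together with Aqr. A member also needed at least 10 counts in 3 or more of the 20 libraries. The name rule found 58 genes, of which 3 pseudogenes were set aside, and all 55 protein-coding genes met the count rule. Of these, 53 had at least 10 counts in every library, and the last 2, Lsm5 and Sf3a2, had them in 19. All 55 were tested in every comparison, and the rule uses no difference between groups.

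Poly-A RNA was sequenced from hypothalamus of male C57BL/6J mice with no other allele named. Acute Gly-Low mice (4 libraries) were 4 months old and ate a glycation-lowering diet for 1 week, and acute controls (5 libraries) of the same age ate control diet for 1 week. Old Gly-Low mice (3 libraries) were 25 months old and had 5 months of the Gly-Low diet, and old controls (4 libraries) had 5 months of control diet. Young controls (4 libraries) were 3 months old with 1 week of control diet. The design asks what the diet changes within a week in young mice, what differs with age, and what the long diet changes in old mice.

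The spliceosome removes introns from pre-mRNA and is built from small nuclear ribonucleoproteins, each a small nuclear RNA with its proteins. The Sm proteins form a ring on the U1, U2, U4 and U5 RNAs, and the related Lsm proteins form a ring on U6 RNA or, with Lsm1 in place of Lsm8, a cytoplasmic ring that takes part in mRNA decay. Around these rings sit large proteins, among them the SF3a and SF3b complexes of U2 and the Prpf8 scaffold and Snrnp200 helicase of U5, which recognise the branch site, unwind the RNAs and hold the catalytic centre. Neurons also express Snrpn, an imprinted copy of the Sm protein Snrpb.

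Members were sorted by name and by transcript length, the median length of a gene's basic transcripts in the GENCODE annotation of GRCm38. The 19 long factors are Sf3, Prpf, Snrnp and Aqr genes of at least 2000 bases, from 2550.5 to 7844 bases with a median of 4069. The 18 short Sm and Lsm genes are Snrp and Lsm genes under 2000 bases, from 416 to 1739 bases with a median of 872.75. The other 11 short factors span 740 to 1915 bases, and the 7 long Sm and Lsm genes span 2004 to 6453 bases. The names and lengths went together: the median coding length was 2619 bases in the long factors and 361.5 bases in the short Sm and Lsm genes.

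The size of the short Sm and Lsm messages can be seen from whole coding sequences, given 5′ to 3′ from the GENCODE transcripts of GRCm38 with the start and stop codons in capitals. Lsm5 encodes a subunit of both Lsm rings, from a transcript of 494 bases at chr6:56701063-56704692 on the minus strand. Sf3b5, a small SF3b subunit, is shown because its coding sequence is as short although its transcript, at chr10:13005343-13009183 on the plus strand, has 3841 bases and is counted among the long factors.
Lsm5: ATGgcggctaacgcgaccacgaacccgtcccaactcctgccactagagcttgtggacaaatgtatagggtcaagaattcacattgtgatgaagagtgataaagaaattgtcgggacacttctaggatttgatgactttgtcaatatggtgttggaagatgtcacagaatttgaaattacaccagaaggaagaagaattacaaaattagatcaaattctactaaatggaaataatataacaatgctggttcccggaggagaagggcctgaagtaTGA
Sf3b5: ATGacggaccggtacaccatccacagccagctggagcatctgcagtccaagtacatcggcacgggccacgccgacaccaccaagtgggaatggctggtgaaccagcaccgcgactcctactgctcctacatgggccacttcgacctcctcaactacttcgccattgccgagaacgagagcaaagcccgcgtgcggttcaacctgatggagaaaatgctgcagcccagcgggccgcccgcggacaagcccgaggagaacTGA

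Snrpb and Snrpn encode near-identical Sm proteins, so their sequences bear on whether reads could be told apart. The first 120 coding bases of Snrpb (chr2:130171635-130179403, minus strand) and Snrpn (chr7:59982502-60140219, minus strand) are given with the 17 bases that differ in capitals. Over 696 aligned coding bases the genes were identical at 80.5%, and the longest identical run had 32 bases.
Snrpb: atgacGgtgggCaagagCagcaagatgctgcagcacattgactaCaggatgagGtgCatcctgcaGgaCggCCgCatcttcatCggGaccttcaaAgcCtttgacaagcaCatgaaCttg
Snrpn: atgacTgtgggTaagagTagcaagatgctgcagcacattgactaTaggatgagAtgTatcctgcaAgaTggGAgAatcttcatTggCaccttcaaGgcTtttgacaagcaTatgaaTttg

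Total counts ran from 15848372 to 27399753 per library, and the members' single counts from 2 (Sf3a2 in a young control) to 12495 (Snrpn). The libraries differed in composition along with the acute groups. Mitochondrial transcripts took 17.0 to 23.3% of counts in acute Gly-Low libraries and 5.35 to 9.11% in acute controls, and cytosolic ribosomal protein genes took 4.90 to 8.0% in acute Gly-Low libraries and 1.76 to 2.16% in acute controls. A length slope was taken for each library by regressing its genes' log2 deviations, from their average over the 20 libraries, on log2 transcript length. It was -0.43 to -0.23 in acute Gly-Low libraries and 0.14 to 0.23 in acute controls. Young controls 1 to 3 and old control 3 also had negative slopes. A list of 8 hypothalamic neuron markers summed to 1425 to 2485 CPM in acute Gly-Low libraries and 418 to 1205 CPM in acute controls, and 6 pituitary markers to 43.5 to 222 CPM in acute Gly-Low libraries and 7.52 to 61177 CPM in acute controls, with Pou1f1 at 0 in every acute Gly-Low library. The summed CPM of lists of 4 general neuron, 3 microglia and 4 choroid plexus markers was lower without overlap. The general neuron markers summed to 1567 to 1953 CPM in acute Gly-Low libraries and 2196 to 2706 CPM in acute controls, the microglia markers to 88.5 to 112 CPM in acute Gly-Low libraries and 115 to 168 CPM in acute controls, and the choroid plexus markers to 25.7 to 31.0 CPM in acute Gly-Low libraries and 34.2 to 41.1 CPM in acute controls. The single markers of a list did not all follow its sum. By edgeR at an adjusted p under 0.05, 1 of 3 microglia and 1 of 4 choroid plexus markers were called higher and 2 of each list lower. Of the 8 hypothalamic neuron markers 5 were called higher and 2 lower, and of the 4 general neuron markers 0 higher and 3 lower. Astrocyte and oligodendrocyte lists overlapped between the acute groups. A list of 4 erythrocyte markers summed to 544 to 1482 CPM in acute Gly-Low libraries and 69.95 to 313 CPM in acute controls. The part of these differences in the results on the members was not tested, beyond the fits for length given further on. In RNA of a whole tissue, fewer cells of a type and less RNA per cell cannot be told apart.

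Levels are given as CPM (counts scaled to a fixed library total) after TMM scaling of library sizes. Divided by transcript length, the highest member was Snrpn, with a median over the 20 libraries of 197 CPM per kilobase (range 158 to 304). Snrpd1, an Sm ring protein, came next with 94.9 CPM per kilobase (66.2 to 319.6), and its range overlaps that of Snrpn. Among the large factors, Prpf19 had a median of 58.5 CPM per kilobase and Sf3b1 of 51.1. The lowest were Lsm11 at 2.63, Prpf40b at 1.99 and Sf3a2 at 1.41 CPM per kilobase, and Sf3a2 reads could be mixed with those of Plekhj1 on the other strand, which shares 16.1% of its exon bases and averaged 33.6 CPM against 2.77 CPM for Sf3a2.

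**Figure D1:**
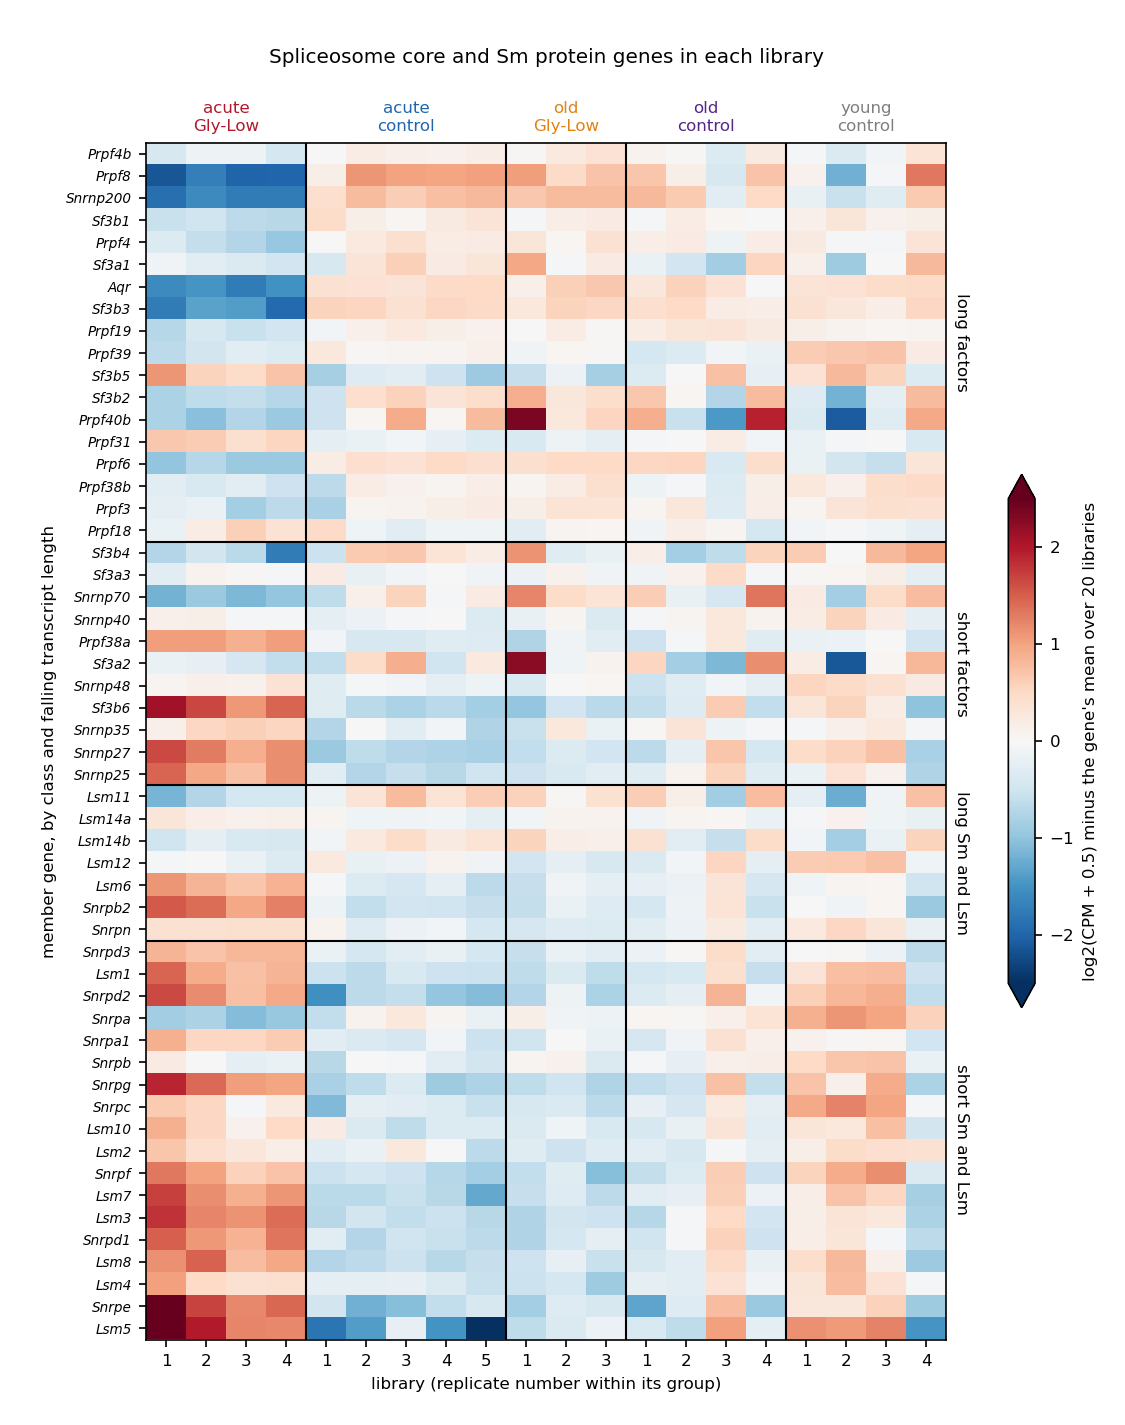
Each row is a member gene, grouped by class and ordered by falling transcript length, and each column 1 of the 20 libraries by group. Colour gives log2(CPM + 0.5) minus the gene's mean over the libraries, and the 4 acute Gly-Low libraries are low in Prpf8, Snrnp200, Aqr and Sf3b3 and high in most short Sm and Lsm genes, with old control 3 and young controls 1 to 3 shifted the same way to a smaller degree.

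In acute Gly-Low libraries the large scaffold and helicase genes were lower, and most of the small ring protein genes higher, than in acute controls. The 4 most strongly lower members were Prpf8, Snrnp200, Sf3b3 and Aqr, 4.02 to 7.19-fold lower, and 16 of the 18 short Sm and Lsm genes rose, up to 11.5-fold for Lsm5 (17.9-fold without acute control 3). Of the 55 members, 28 were called higher and 18 lower by edgeR's quasi-likelihood test at an adjusted p under 0.05. Of all 17161 genes tested, 58.3% were called, 27.8% higher and 30.5% lower, so a large share of calls is the background here. By class, the long factors had 13 lower and 2 higher of 19 with a median log2 fold change of -0.63, and the short Sm and Lsm genes 16 higher and 1 lower of 18 with a median of 1.59. The short factors had 6 higher and 2 lower of 11 (median 0.34) and the long Sm and Lsm genes 4 higher and 2 lower of 7 (median 0.28). All genes tested had a median of -0.07. The acute groups did not overlap in CPM in 26 members that were higher and 16 that were lower, against 46.9% of all genes in either direction, 23% higher and 23.9% lower. At an unadjusted p under 0.05 were 48 members, against 62.5% of all genes. Without acute controls 2, 3 and 5, the libraries with most pituitary transcripts, 37 members were called, against 40.8% of all genes in that fit, with 10 long factors lower and 14 short Sm and Lsm genes higher.

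In the U5 particle, the scaffold Prpf8 lies at the catalytic centre. Prpf8 had 27.9, 37.9, 30.7 and 31.5 CPM in acute Gly-Low libraries and 139, 272, 251, 248 and 257 CPM in acute controls. The groups did not overlap, although acute control 1 stood well below the other acute controls. Its log2 fold change was -2.85 ± 0.19 (SE; adjusted p = 1.88e-07). Snrnp200, the helicase that unwinds U4 from U6, had 31.7, 38.8, 35.02 and 34.8 CPM in acute Gly-Low libraries and 159.7, 207, 181, 200.5 and 209.8 CPM in acute controls. No acute control came near the highest acute Gly-Low library. Its log2 fold change, -2.43 ± 0.13, had the smallest p of all 17161 genes tested (adjusted p = 1.22e-07). Prpf6, which bridges U5 and U4/U6, also fell, with a log2 fold change of -1.26 ± 0.12 (adjusted p = 8.51e-07) and mean levels of 45.3 ± 4.11 CPM in acute Gly-Low and 109.9 ± 8.75 CPM in acute control libraries (SD, n = 4 and 5). Snrnp40, a WD-repeat protein of U5, had a log2 fold change of 0.22 ± 0.13 and missed the threshold (adjusted p = 0.155).

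Not all genes of the tri-snRNP followed. Prpf31, a U4/U6 protein, rose to 72.8, 70.9, 60.8 and 66.7 CPM in acute Gly-Low libraries, against 38.96, 40.7, 43.8, 39.9 and 36.2 CPM in acute controls, with a log2 fold change of 0.78 ± 0.11 (adjusted p = 3.44e-05). Its U4/U6 partner Prpf4 fell by 0.85 in log2 terms (adjusted p = 0.000326), and Prpf3 had a log2 fold change of -0.43 ± 0.22 (adjusted p = 0.111). In Prpf3, acute control 1 had 9.47 CPM, within the acute Gly-Low range, and without that library the log2 fold change was -0.57 and an adjusted p that reached 0.00743. Snrnp27, a small tri-snRNP protein, rose to 125 ± 26.99 CPM in acute Gly-Low libraries, against 29.7 ± 2.33 CPM in acute controls (SD), a log2 fold change of 2.09 ± 0.15 (adjusted p = 1.88e-07).

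Subunits of SF3b, the U2 complex that holds the branch site, went in both directions. Sf3b1, the largest subunit and the one that clamps the branch helix, had 199, 207, 187 and 181 CPM in acute Gly-Low libraries and 406, 325, 303, 343 and 367 CPM in acute controls, without overlap. Its log2 fold change was -0.84 ± 0.13 (adjusted p = 8.71e-05). Sf3b3, a WD-propeller scaffold, had 27.9, 37.2, 35.7 and 24.3 CPM in acute Gly-Low libraries and 141, 139, 125, 136 and 133 CPM in acute controls, a log2 fold change of -2.09 ± 0.15 (adjusted p = 1.88e-07). The acute Gly-Low values lay far below every acute control. Sf3b2 fell with a log2 fold change of -0.96 ± 0.18 and Sf3b4 with one of -1.18 ± 0.29 (adjusted p = 0.000389 and 0.00255). In both genes acute control 1 stood apart from the other acute controls, within the acute Gly-Low range in Sf3b4 and just above it in Sf3b2.

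Sf3b6 and Sf3b5, small SF3b subunits, moved the other way. Sf3b6, which sits at the branch adenosine, had 378, 281, 187 and 241 CPM in acute Gly-Low libraries and 70.6, 54.8, 50.1, 54.5 and 48.2 CPM in acute controls, a log2 fold change of 2.30 ± 0.19 (adjusted p = 3.33e-07). Sf3b5, whose sequence is given above, had 107, 72.4, 68.2 and 80.9 CPM in acute Gly-Low libraries and 27.6, 39.3, 40.8, 34.1 and 26.1 CPM in acute controls, a log2 fold change of 1.31 ± 0.17 (adjusted p = 1.12e-05). All acute Gly-Low values of both lay above all acute controls. In the SF3a complex, the log2 fold change was -0.53 ± 0.18 for Sf3a1 (adjusted p = 0.021), -0.66 ± 0.40 for Sf3a2 (adjusted p = 0.165) and -0.01 ± 0.13 for Sf3a3 (adjusted p = 0.96), so only Sf3a1 passed the test in this complex. That call was lost in the fit on all 5 groups (adjusted p = 0.165) and on leaving out 1 library, either the third or the fourth of acute Gly-Low or the third acute control (adjusted p = 0.0501, 0.0658 and 0.0545).

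Aqr, a large helicase that binds the intron, had 17.3, 19.02, 15.5 and 18.5 CPM in acute Gly-Low libraries and 70.2, 68.7, 67.3, 74.6 and 76.1 CPM in acute controls. The acute groups were tight and far apart, with a log2 fold change of -2.01 ± 0.12 (adjusted p = 1.88e-07). Prpf19, the ubiquitin ligase of the Prp19 complex, fell to 154 ± 14.2 CPM in acute Gly-Low libraries, against 241 ± 18.5 CPM in acute controls (SD), a log2 fold change of -0.63 ± 0.12 (adjusted p = 0.000375). Among other long factors, Prpf39, Prpf40b and Prpf4b were called lower, and Prpf18 and Prpf38b were not called (log2 fold changes 0.27 and -0.35). In both of these genes acute control 1 stood apart from the other acute controls, at 100.4 CPM in Prpf18 (the others 59.6 to 66.9) and 33.2 CPM in Prpf38b (the others 55.6 to 59.6). Without that library Prpf18 was called higher (0.43, adjusted p = 0.016) and Prpf38b lower (-0.47, adjusted p = 0.00108). The call of Prpf4b was lost without acute Gly-Low 4 (adjusted p = 0.0551). Part of the Prpf39 exons, 5.01%, is shared with Fkbp3 on the other strand, which averaged 213 CPM.

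**Figure D2:**
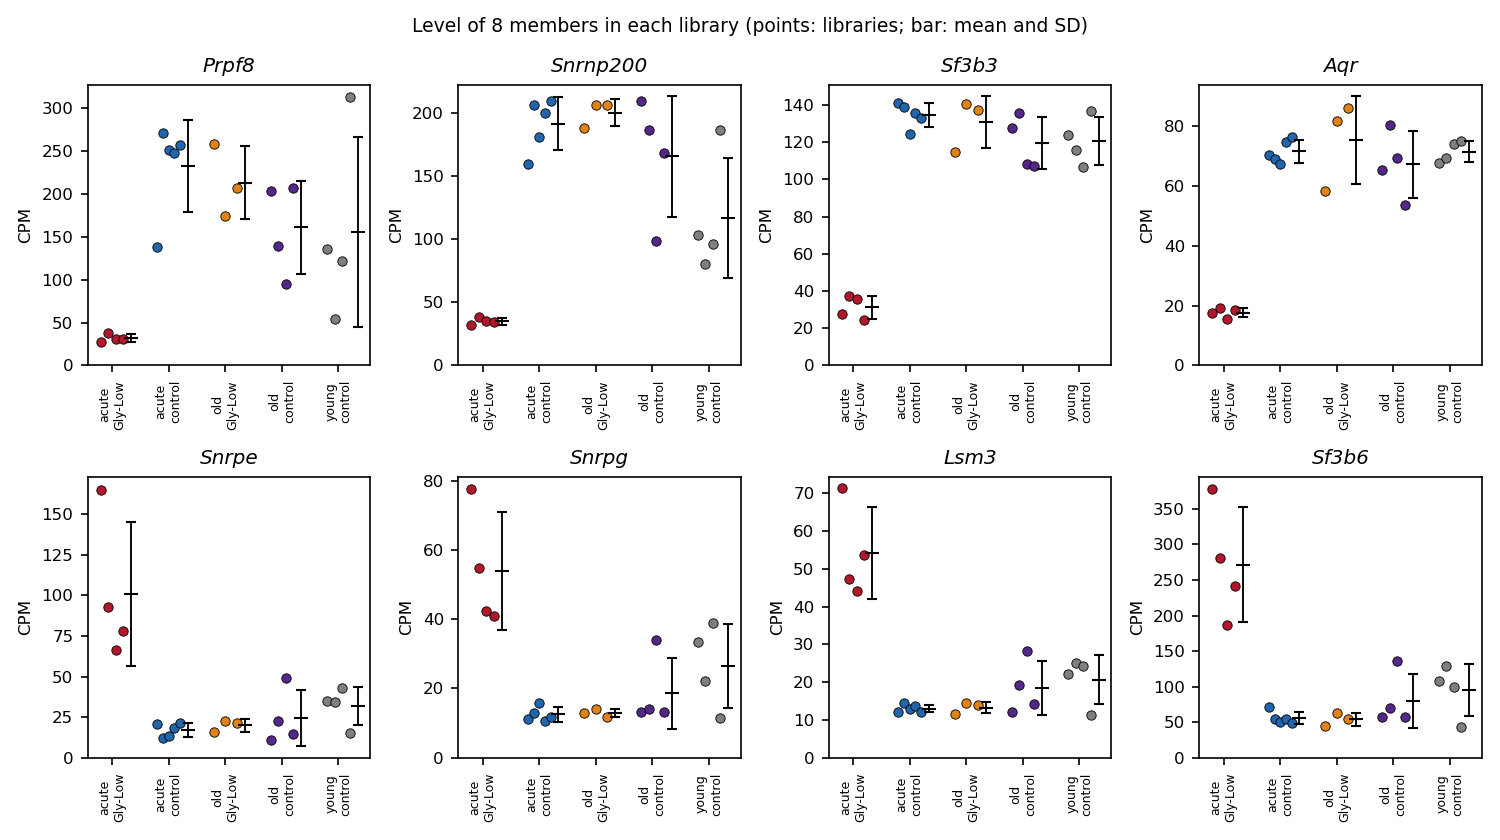
CPM (linear axes from 0) of 4 large factors in the upper row and of 3 small ring proteins and Sf3b6 in the lower row, 1 point a library, with the mean and SD of each group at its right. For each of the 8 genes the acute Gly-Low points lie apart from all acute control points, while the old and young control groups spread widely in Prpf8, Snrpe, Snrpg and Sf3b6.

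The Sm ring has 7 proteins, B, D1, D2, D3, E, F and G, and 6 of their genes were called higher in acute Gly-Low libraries. Snrpe had 165, 92.6, 66.4 and 78.2 CPM in acute Gly-Low libraries and 20.7, 12.02, 13.3, 18.4 and 21.3 CPM in acute controls. The lowest acute Gly-Low library was above the highest acute control, with acute Gly-Low 1 the highest. The log2 fold change of Snrpe was 2.57 ± 0.26 (adjusted p = 1.6e-06). Snrpg had 77.7, 54.9, 42.3 and 40.8 CPM in acute Gly-Low libraries and 11.3, 12.9, 15.9, 10.7 and 11.7 CPM in acute controls, a log2 fold change of 2.13 ± 0.19 (adjusted p = 6.45e-07). Snrpd2 had 198, 144, 106 and 121 CPM in acute Gly-Low libraries and 21.4, 39.5, 41.4, 31.9 and 29.3 CPM in acute controls, a log2 fold change of 2.14 ± 0.20 (adjusted p = 9.45e-07). Both were clear of the acute controls in every acute Gly-Low library.

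Snrpd1, Snrpf and Snrpd3 rose less, with log2 fold changes of 1.77 ± 0.15, 1.59 ± 0.17 and 1.13 ± 0.11 (adjusted p = 3.74e-07, 2.15e-06 and 1.41e-06). Snrpf shares 65.9% of its exon bases with Ccdc38 on the other strand, which averaged 1.55 CPM against 24.2 CPM for Snrpf. Snrpb, the seventh Sm gene and the one with the longest coding sequence of them, had 64.2, 55, 47.1 and 49.3 CPM in acute Gly-Low libraries and 33.9, 55.2, 54.1, 46.2 and 39.8 CPM in acute controls. These groups overlapped, and the log2 fold change of 0.25 ± 0.15 did not pass (adjusted p = 0.173). Snrpn, its neuronal copy, had 554, 557, 565 and 559 CPM in acute Gly-Low libraries and 454, 340.4, 385, 406 and 316 CPM in acute controls, a log2 fold change of 0.57 ± 0.14 (adjusted p = 0.0022). Snrpb made up 8.79 ± 1.19% of the pair's CPM in acute Gly-Low libraries and 10.9 ± 2.62% in acute controls (SD). Shares of pairs are not divided by transcript length, which was 1161 bases for Snrpb and 2004 for Snrpn. Snrpn also shares 27.3% of its exon bases with an overlapping gene on its own strand, Gm38393, so its counts are uncertain.

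Proteins bound to U1 or U2 alone gave mixed results. The U1 proteins Snrnp70 and Snrpa, which bind stem loops of U1 RNA, both fell. Snrnp70 had 23.6, 27.99, 24.7 and 27.4 CPM in acute Gly-Low libraries and 34.4, 59.3, 79.3, 53.1 and 62.3 CPM in acute controls, a log2 fold change of -1.14 ± 0.19 (adjusted p = 0.000124). Snrpa had 22.8, 24.1, 19.6 and 21.6 CPM in acute Gly-Low libraries and 27.4, 44.4, 50.2, 43.8 and 37.5 CPM in acute controls, a log2 fold change of -0.87 ± 0.16 (adjusted p = 0.000364). In both genes acute control 1 was the acute control nearest to the acute Gly-Low libraries, and the groups did not overlap. Snrpc, the third U1 protein, rose by 0.86 ± 0.19 on the log2 scale (adjusted p = 0.00141), with acute control 1 again lowest.

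The U2 proteins Snrpa1 and Snrpb2 rose, with log2 fold changes of 1.01 ± 0.15 and 1.78 ± 0.15 (adjusted p = 4.56e-05 and 3.24e-07). Snrpb2 is the relative of Snrpa in U2 and is a long Sm and Lsm gene here, with 139.9, 128, 94.7 and 115 CPM in acute Gly-Low libraries and 43.8, 31.3, 34.2, 33.8 and 32.2 CPM in acute controls. As a share of the pair's CPM, again not divided by length, Snrpa made up 15.7 ± 1.29% in acute Gly-Low libraries and 53.4 ± 8.61% in acute controls (SD). The other 3 groups had means of 52.6, 52.4 and 65.8% in old Gly-Low, old control and young control libraries. The acute Gly-Low libraries, at 14.0 to 17.1%, lay below the lowest value of any other group, 38.5%. Snrnp25, Snrnp35 and Snrnp48 of the U11/U12 particle, which serves the minor introns, were all called higher, with log2 fold changes of 1.71, 0.85 and 0.34. The call of Snrnp48, the smallest of these changes, was lost on leaving out any of 4 of the 9 libraries in turn (acute controls 4 and 5 and acute Gly-Low 2 and 4; adjusted p up to 0.106).

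The nuclear and cytoplasmic Lsm rings are built from Lsm1 to Lsm8, of which 7 are short genes here and Lsm6 a long one, and all 8 rose. Lsm5 had 26.97, 18.5, 10.6 and 10.5 CPM in acute Gly-Low libraries and 0.856, 1.32, 3.64, 1.21 and 0.291 CPM in acute controls, and its lowest count, 7, was in an acute control. It rose in every acute Gly-Low library, by a log2 fold change of 3.53 ± 0.49 (adjusted p = 2.73e-05), and its error is the widest of the class. Without acute control 3, the highest of the acute controls, the log2 fold change was 4.16. Lsm3 had 71.4, 47.3, 44.1 and 53.6 CPM in acute Gly-Low libraries and 12.1, 14.4, 12.8, 13.6 and 12.1 CPM in acute controls, a log2 fold change of 2.07 ± 0.15 (adjusted p = 2.42e-07). Lsm7 had 101, 68.7, 56.9 and 66.2 CPM in acute Gly-Low libraries and 18.9, 18.9, 20.6, 18.6 and 12.2 CPM in acute controls, a log2 fold change of 2.05 ± 0.18 (adjusted p = 5.38e-07). No acute control overlapped the acute Gly-Low libraries in these 3 genes.

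Lsm8, which marks the nuclear U6 ring, and Lsm1, which marks the cytoplasmic decay ring, both rose, with log2 fold changes of 1.81 ± 0.16 and 1.59 ± 0.15 (adjusted p = 4.23e-07 and 1.12e-06). Lsm4, Lsm6 and Lsm2 rose with log2 fold changes of 0.95, 1.24 and 0.60, and the call of Lsm2 was lost on leaving out any 1 library but acute control 3 or acute Gly-Low 4 (adjusted p up to 0.128). In the U7 particle, which processes histone messages, Lsm10 rose by 0.85 ± 0.22 and Lsm11 fell with -1.10 ± 0.21 on the log2 scale (adjusted p = 0.0042 and 0.000411). Lsm11 has a transcript of 6453 bases and Lsm10 one of 875.5 bases. Lsm14a, a cytoplasmic protein of repressed messages, had a log2 fold change of 0.28 ± 0.11 (adjusted p = 0.0442), a call that was lost on leaving out any 1 library but acute control 1, and its relative Lsm14b fell with -0.62 ± 0.13 (adjusted p = 0.00107). Lsm12 was not called (log2 fold change -0.11).

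Of the other related pairs, Prpf38a and Prpf38b, B-complex proteins, differed in their calls. Prpf38a was called higher and Prpf38b was not called, at log2 fold changes of 1.33 ± 0.12 and -0.35 ± 0.16. Prpf38a made up 60.7 ± 2.78% of the pair's CPM, not divided by length, in acute Gly-Low libraries and 33.2 ± 8.10% in acute controls (SD). Among the acute controls, acute control 1, the library that stood apart in Prpf38b, had the highest share, 47.6%.

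The members' acute fold changes ran with the length of the gene. Across the 55 members, Spearman's rho between the log2 fold change and transcript length was -0.75, and with coding length -0.86, a description over genes that share the same 9 libraries. Across 14647 protein-coding genes tested, the same values were -0.56 and -0.60. Within the 18 short Sm and Lsm genes rho with coding length was -0.82, and within the 19 long factors -0.71. With transcript length rho was weaker within the classes, -0.42 in the short genes and -0.45 in the long factors. With the GC content of the transcript rho was -0.34 over the 55 members, -0.74 within the 18 short genes and -0.55 within the 19 long factors. Sf3b5, with 258 coding bases in a long transcript, rose, and Lsm14b and Lsm11, with 1155 and 1083 coding bases, fell. Prpf31, with 1497 coding bases, rose.

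Protein-coding genes within the range of transcript lengths of a class were called more often in the direction of the class than in the other. Only the ends of the range were matched, not the spread of lengths within it nor the coding lengths. Of 3515 genes between 416 and 1739 bases, 59.7% were called higher and 6.26% lower, with a median log2 fold change of 0.77, against 1.59 for the short Sm and Lsm genes. Of 7521 genes between 2550.5 and 7844 bases, 12.4% were called higher and 49.1% lower, with a median of -0.52, against -0.63 for the long factors. Prpf8 and Snrnp200, with 7005 and 6408 coding bases, have the longest coding sequences of the members.

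**Figure D3:**
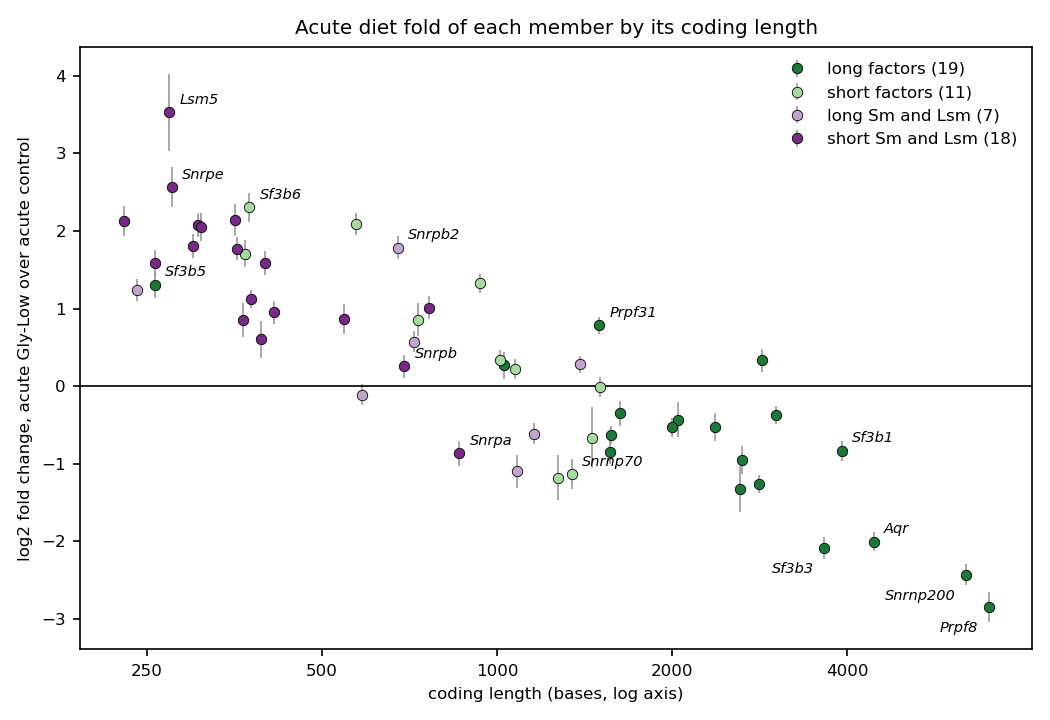
Log2 fold change of acute Gly-Low over acute control (vertical axis, bars are 1 SE) against coding length in bases (log axis), 1 point for each of the 55 members, coloured by class. The points run from Lsm5 at 3.53 and Snrpe at 2.57 on the left to Snrnp200 at -2.43 and Prpf8 at -2.85 on the right.

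The members were also fitted with library length trends taken into account. With an offset for each library's trend over transcript length, 38 members were called, 24 higher and 14 lower, of which 35 were among the 46 above. In the same fit 47.8% of all genes were called, 23.9% higher and 23.9% lower. In that fit Snrnp200 had a log2 fold change of -1.61 and Prpf8 of -1.96 (adjusted p = 8.42e-07 and 1.17e-06), Aqr of -1.35 and Sf3b3 of -1.45. Snrpe had 1.05, Snrpg 1.22, Lsm3 0.81 and Lsm5 2.05 on the log2 scale. The calls of Sf3b1 (-0.02), Prpf19 (-0.10), Sf3a1 (0.20) and Snrpc (-0.13) were lost, and Snrpb was called lower (-0.51, adjusted p = 0.00731). Long factors called lower numbered 7 and short Sm and Lsm genes called higher 12.

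When each library's length slope entered as a covariate, with all 5 groups fitted together, 15 members were called in the acute comparison, against 20% of all genes, 11.2% higher and 8.76% lower. The 7 long factors still lower there included Aqr (-2.15), Sf3b3 (-1.94), Snrnp200 (-1.42) and Prpf8 (-1.07, adjusted p = 0.0167), in log2 fold change. Only 2 short Sm and Lsm genes were called higher, Lsm3 (0.74) and Snrpd1 (0.59), while Snrpe (0.59, adjusted p = 0.291), Snrpg, Snrpd2 and Lsm5 were not. The slope did not overlap between the acute groups, so diet and slope cannot be fully told apart in this fit. That fit also moved the median of all genes to 0.17, against -0.07.

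A simple index for the balance of both classes is the mean log2 CPM of the long factors minus that of the short Sm and Lsm genes in a library. It was -0.51, -0.06, 0.18 and -0.03 in acute Gly-Low libraries and 1.95, 2.10, 1.99, 2.07 and 2.39 in acute controls. The groups were far apart, with a difference of -2.21 against a pooled SD of 0.233. Old Gly-Low libraries had 2.16, 1.85 and 2.11, old controls 1.93, 1.71, 0.67 and 1.85, and young controls 0.97, 0.52, 0.79 and 2.19. Old control 3 and young controls 1 to 3 thus lay between the acute Gly-Low libraries and the rest. The difference was 0.50 for old Gly-Low over old control (pooled SD 0.468), 0.42 for old control over young control (pooled SD 0.668) and 0.98 for acute control over young control (pooled SD 0.501), and these groups overlapped in all 3 comparisons.

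In summed levels, the 18 short Sm and Lsm genes reached 906 to 1438 CPM in acute Gly-Low libraries and 381 to 460.5 CPM in acute controls. The 19 long factors summed to 1108 to 1212 CPM in acute Gly-Low libraries and 1853 to 2133 CPM in acute controls. The index ranked the libraries much as the length slope and the mitochondrial share did. The 8 libraries lowest in the index were the 8 lowest in slope, and they alone had mitochondrial shares of 12.9% or more. The part of RNA quality or of cell make-up in this ordering was not tested.

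**Figure D4:**
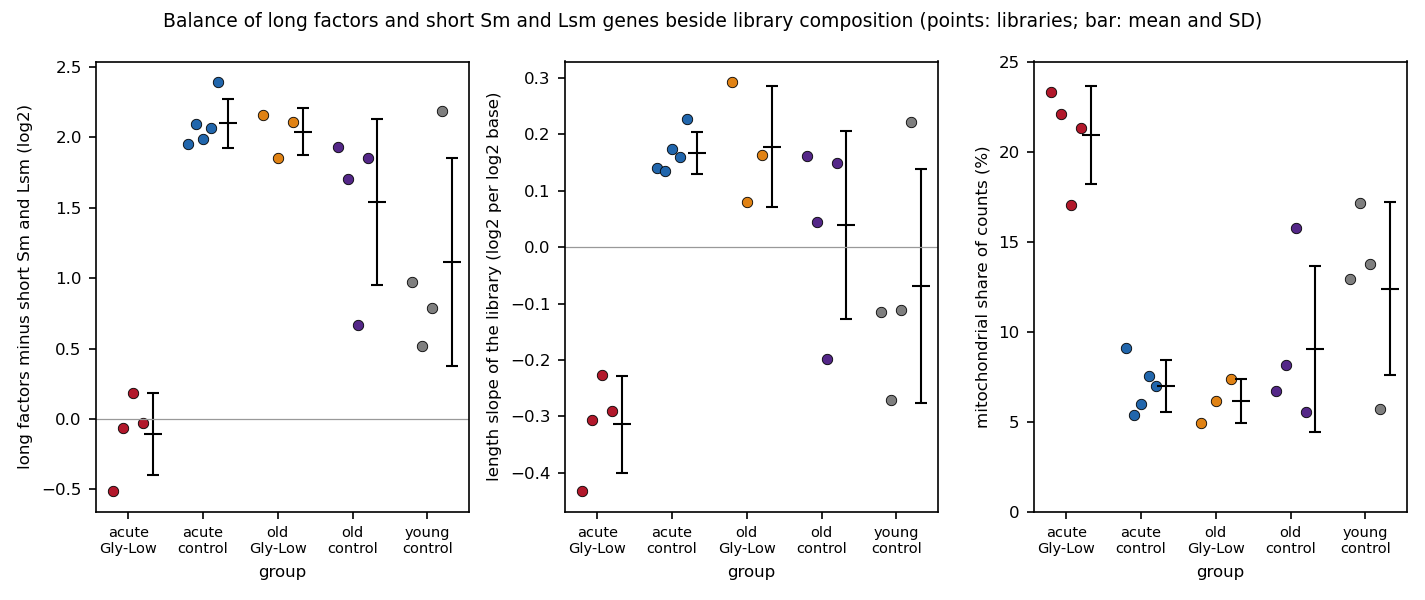
Left, mean log2 CPM of 19 long factors minus that of 18 short Sm and Lsm genes, centre, length slope, and right, mitochondrial share of counts (%), with 1 point a library and the mean and SD of each group. All 4 acute Gly-Low libraries have an index between -0.51 and 0.18, and old control 3 (0.67) and young controls 1 to 3 (0.52 to 0.97) stand apart from the others of their groups in all 3 measures.

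With age, no member was called by edgeR in old controls over young controls, where 6 of 18281 genes (0.0328%) were called. At an unadjusted p under 0.05 there were 7 members, all lower, against 9.1% of all genes in either direction. DESeq2 called 5 members, against 2.12% of all genes. Limma-voom called 25, of which 22 were lower, against 21.4% of all genes, 12% lower. Snrpa had 43.4, 42.8, 45.9 and 53.4 CPM in old controls and 78.3, 90.7, 84.04 and 63.3 CPM in young controls. Its groups did not overlap, with a log2 fold change of -0.79 ± 0.15 (adjusted p = 0.105). Prpf39, whose yeast relative is a U1 protein, had 34.3, 36.99, 44.8 and 41.6 CPM in old controls and 72.6, 74.8, 77.1 and 53.8 CPM in young controls, also without overlap, with a log2 fold change of -0.84 ± 0.16 (adjusted p = 0.107). These genes were picked after their values were seen, as the members with the smallest p. In all, 4 members were lower and 1 higher without overlap between the groups, against 5.74% of all genes in either direction, 2.77% higher and 2.96% lower.

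Several genes of the acute result, among them Snrnp200, Prpf8, Snrpe and Snrpg, had wider errors with age than in the acute comparison. Snrnp200 had 209.9, 187, 98.9 and 168 CPM in old controls and 104, 80.9, 96.5 and 187 CPM in young controls, a log2 fold change of 0.49 ± 0.27 (adjusted p = 0.639). Old control 3 was low and young control 4 high. Snrpe had 11.1, 22.7, 48.9 and 14.8 CPM in old controls and 34.8, 34.6, 42.7 and 15.2 CPM in young controls, a log2 fold change of -0.40 ± 0.46 (adjusted p = 0.836). In Snrpe old control 3 was high and young control 4 low. Prpf8 (0.03 ± 0.43), Aqr (-0.10 ± 0.17), Sf3b1 (-0.14 ± 0.12), Snrpd2 (-0.43 ± 0.37), Snrpg (-0.53 ± 0.41) and Lsm3 (-0.18 ± 0.32) had age log2 fold changes within 2 SE of 0. By class, 16 of 18 short Sm and Lsm genes were below 0 with a median of -0.43, and the long factors had a median of -0.03, with all genes at 0.02. Spearman's rho of the age log2 fold change with transcript length was 0.44 over the members and 0.25 over 15183 protein-coding genes tested.

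The long diet in old mice gave no call among the members, and none among all 18281 genes (0%) by edgeR. At an unadjusted p under 0.05 were 2 members, Lsm4 (-0.57 ± 0.24) and Prpf38b (0.34 ± 0.15), against 2.37% of all genes, and neither DESeq2, limma-voom nor the fit with replicate numbers as a block called a member, where DESeq2 called 0.0164% of all genes. Prpf8 had 259, 174 and 207 CPM in old Gly-Low libraries and 204, 139, 94.7 and 207 CPM in old controls, a log2 fold change of 0.44 ± 0.46 (adjusted p = 0.953). Snrpd2, with 37.6, 57.6 and 36.1 CPM in old Gly-Low libraries and 49.4, 53.7, 114 and 59.5 CPM in old controls, had one of -0.64 ± 0.40. In both genes the groups overlapped. The log2 fold change was 0.30 ± 0.29 for Snrnp200, 0.19 ± 0.18 for Aqr, 0.09 ± 0.13 for Sf3b1, -0.28 ± 0.50 for Snrpe, -0.51 ± 0.45 for Snrpg and -0.46 ± 0.35 for Lsm3.

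All 18 short Sm and Lsm genes had old diet fold changes below 0, with a median of -0.36, and 16 of 19 long factors had them above 0, with a median of 0.19, while all genes had a median of 0.03. Spearman's rho of the old diet log2 fold change was 0.64 with transcript length and 0.82 with coding length over the members. Over 15183 protein-coding genes tested both values were 0.52. The members were measured in the same 7 libraries, so their signs are not independent. Old control 3, with 15.8% mitochondrial counts, weighed on this: without it, the index difference fell to 0.21, against 0.50 with it. There were 5 members lower and none higher without overlap between old Gly-Low and old control libraries, against 6.52% of all genes in either direction, 3.02% higher and 3.5% lower.

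The 2 young groups on control diet, which differ by 1 month of age, differed as well. In acute controls over young controls, 14 members were called lower and none higher, against 5.29% of all 19061 genes, 4.37% lower and 0.923% higher. Of the 14, 10 were short Sm and Lsm genes. Spearman's rho of this log2 fold change with transcript length was 0.78 over the members and 0.48 over 15485 protein-coding genes tested. The groups did not overlap in 5 members, all lower, against 5.69% of all genes in either direction, 3.58% lower. Snrpa had 27.4, 44.4, 50.2, 43.8 and 37.5 CPM in acute controls and 78.3, 90.7, 84.04 and 63.3 CPM in young controls, and Snrpc had 12.5, 23.6, 22.9, 21.6 and 18.6 CPM in acute controls and 53.5, 65.8, 55.1 and 26.6 CPM in young controls. Neither gene overlapped between the groups, and the log2 fold changes were -0.96 ± 0.15 and -1.34 ± 0.23 (adjusted p = 0.0116 for both). Snrpd2 (-1.49 ± 0.30) and Snrpf (-1.31 ± 0.29) were also lower (adjusted p = 0.0169 and 0.0196), with young control 4 inside or next to the acute control range.

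Snrnp200 (0.71 ± 0.21), Prpf8 (0.58 ± 0.35), Snrpe (-0.89 ± 0.37), Snrpg (-1.08 ± 0.32), Lsm3 (-0.67 ± 0.24), Aqr (0.00 ± 0.13) and Sf3b1 (0.08 ± 0.10) were not called. The result turned on few libraries. No member and no gene (0%) was called without young control 2 or without young control 3, and 27 members were called without young control 4, against 20.9% of all genes. Leaving out young control 1 left 4 calls, against 0.958% of all genes. Leaving out acute control 1, 2, 4 or 5 left 6, 8, 7 and 2, against 2.25, 2.85, 2.69 and 0.374% of all genes. No member and no gene was called when acute controls 2, 3 and 5, the libraries with most pituitary transcripts, were left out, nor with the length slope as a covariate. The part of age, and of these libraries' RNA, in this difference cannot be told apart from the groups.

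The acute comparison shares its controls with the comparison of the young groups, and the age comparison shares groups with it and with the old diet comparison, so their fold changes are given side by side only. For Snrpd2 the log2 fold change was 2.14 for acute Gly-Low over acute control, -0.43 for age, -0.64 for the old diet and -1.49 for acute over young control. For Snrnp200 these were -2.43, 0.49, 0.30 and 0.71.

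**Figure D5:**
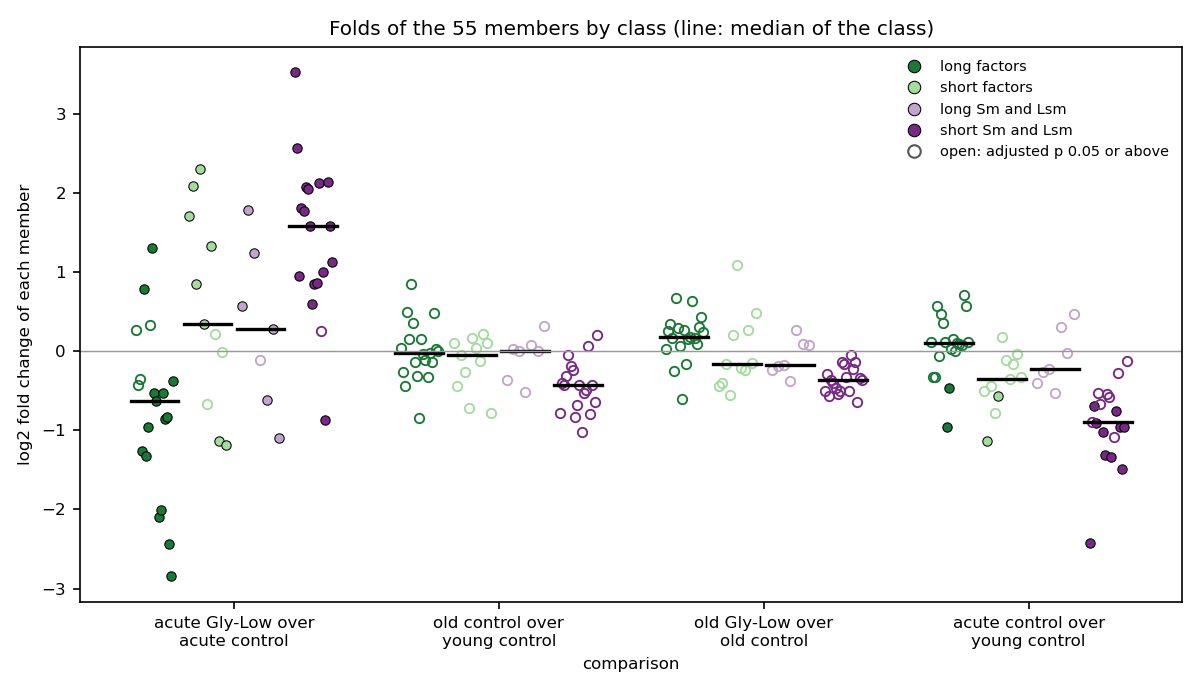
Log2 fold change (vertical axis) of each member in 4 comparisons, each axis label naming the numerator first, with filled points for an adjusted p under 0.05 and a line at the median of each class. The short Sm and Lsm genes have medians of 1.59, -0.43, -0.36 and -0.90 from left to right, and the long factors of -0.63, -0.03, 0.19 and 0.10.

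The diet effect differed between the acute and the old arm when the difference itself was tested. Of 55 members, 39 passed, 25 with a higher and 14 with a lower effect in the acute arm, against 36% of all genes. The difference was -2.24 ± 0.20 for Sf3b3, -2.19 ± 0.19 for Aqr and -2.72 ± 0.32 for Snrnp200 on the log2 scale (adjusted p = 1.47e-06, 1.48e-06 and 1.77e-05). It was 2.53 ± 0.37 for Lsm3 and 1.5 ± 0.23 for Snrpd3 (adjusted p = 7.67e-05 and 0.000121). Age and length of feeding both differ between the arms and cannot be told apart. With the length slope as a covariate 6 members passed, against 8.99% of all genes.

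Other genes of the splicing machinery were read from 10 lists with 118 genes, all tested. In the acute comparison 43 rose and 33 fell, with a median log2 fold change of 0.04. The share of all genes called was 27.8% higher and 30.5% lower, so these counts and those of the single lists lie on a high background, and none was tested against it. The helicases and second-step factors had 5 lower and none higher of 11, among them Dhx8 and Dhx38, which release the spliced message and drive the second step (-1.94 ± 0.20 and -2.03 ± 0.26). The Prp19 complex list had 11 higher and 3 lower of 19, with the small Bud31 at 1.75 ± 0.14 and the large Xab2, a partner of Aqr, at -1.31 ± 0.14. In the tri-snRNP list 7 rose and 4 fell of 16, with the U5 GTPase Eftud2 at -1.09 ± 0.13 and the recycling factor Sart3 at -1.70 ± 0.25 against Zmat2 at 1.65 ± 0.12.

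The SMN complex, which loads Sm rings onto RNA, had 6 higher and 2 lower of 11. Its small subunits Gemin6 and Gemin7 rose (1.52 ± 0.20 and 1.24 ± 0.16) and the large Gemin5, which recognises the RNA, fell (-2.06 ± 0.24). Smn1 itself was not called (0.04 ± 0.21). In the exon junction complex the small Magoh and Magohb rose (1.99 ± 0.18 and 2.23 ± 0.25) and Casc3 fell (-0.62 ± 0.17), with 3 higher and 1 lower of 5. The counts were 4 higher and 6 lower of 12 for U2 recruitment, 6 higher and 3 lower of 13 for SR proteins, 3 higher and 5 lower of 19 for hnRNPs, none higher and 4 lower of 6 for the kinases of SR proteins, and 3 higher and none lower of 6 for the minor spliceosome.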

How the data were processed

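Per the labels' protocols, poly-A RNA of flash-frozen mouse hypothalamus was made into non-directional libraries, and the authors deposited a table of raw read counts per gene for 20 libraries. Tools and build in the submitters' processing notes are GRCm38, featureCounts 1.5.0-p3, DESeq2 1.20.0 and HISAT2 2.0.5, with no role or order. An annotation release and a strand setting were not given in the sources used here, so reads of overlapping genes cannot be told apart. Of 54532 genes, 54495 matched the GENCODE annotation of GRCm38, from which transcript lengths, positions and sequences were taken.

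Counts were filtered by group with filterByExpr, scaled by TMM and tested by quasi-likelihood F tests in edgeR 4.0.16 (R 4.3.3). P-values were adjusted by Benjamini-Hochberg over every gene in the fit, with calls at 0.05. The acute diet was fitted on the 9 acute libraries, age and old diet on the 11 libraries of the ageing arm, and the young groups and the difference between arms on all 20. The SE is the size of the log2 fold change divided by the root of F. The index uses log2 CPM with a prior count of 2. The tests were also run on simulated counts with few changed genes and no length trend between libraries. That run does not check them under the differences in composition seen here. Alternatives were DESeq2 1.42.0, its size factors, limma-voom 3.58.1 with quality weights, other filters, a replicate block, leaving out libraries, a transcript-length offset over 40 bins and the length slope as a covariate. A boundary by coding length was added after seeing the data.

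Deviations of old Gly-Low and old control libraries with the same number correlated at 0.484, 0.331 and 0.304, each over the limit of 0.1 used for taking numbers as pairs. The pairing is uncertain, since no old Gly-Low library correlated best with its own number. The deposited columns also number the old Gly-Low libraries, other than replicate 1, differently from the titles used here. Same-numbered old and young controls, groups of different age, correlated at -0.059, 0.323, 0.107 and 0.667. A value over the limit therefore does not by itself show a pair. The labels do not say that libraries came from separate animals, so p-values measure only the spread between these libraries. The members, lists and tests were chosen with earlier results of these data known. Members were named by role in the spliceosome or as those with the smallest p in each direction, and the others are given more briefly; values of 1 member, which is in every count, are not reported here. Lists of other splicing genes and markers were set by hand.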

Additional observations from a re-analysis of the deposited data

Results flagged for a closer look

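Within groups of 4 or 5 libraries, 24 of 232 sets of values had 1 library far from the others. The sets were the CPM of the 55 members and 3 measures of the libraries. Chance gives about 1 in 20 for a single set. The sets come from the same libraries and are not independent, so their number cannot be judged against that rate. Old control 3 stood out in 9 of the 24. It was high in Lsm5 (9.24 CPM, the others 2.59 to 3.56), Lsm7 (46.1, the others 25.0 to 27.5), Sf3b6 (136, the others 56.9 to 70.1), Snrpd2 (114, the others 49.4 to 59.5), Snrpf (32.4, the others 13.8 to 16.4), Snrpg (34.0, the others 13.1 to 14.0) and Lsm1 (34.9, the others 17.5 to 20.03), and low in Prpf6 (64.5, the others 114 to 123) and Prpf4 (19.4, the others 23.7 to 24.4). The same library had 15.8% mitochondrial counts and a length slope of -0.20, and the part of these in its values was not tested.

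Acute control 1 was low in Prpf8 (139 CPM, the others 248 to 272), Prpf3 (9.47, the others 17.7 to 19.4) and Prpf38b (33.2, the others 55.6 to 59.6). It was high in Snrpb2 (43.8, the others 31.3 to 34.2), Prpf18 (100.4, the others 59.6 to 66.9), Lsm10 (10.2, the others 5.47 to 6.81) and Prpf38a (30.1, the others 23.5 to 25.3). Acute control 5 was low in Lsm7 (12.2, the others 18.6 to 20.6). Young control 4 was low in Lsm5 (1.22, the others 9.57 to 10.8), Lsm12 (40.8, the others 68.5 to 72.9) and Snrpa1 (13.7, the others 19.7 to 20.7). In acute Gly-Low, replicate 1 was high in Lsm4 (70.2, the others 44.6 to 48.6), replicate 2 low in Snrpd3 (143, the others 155 to 157), replicate 3 low in Prpf38a (58.7, the others 64.8 to 64.9) and replicate 4 high in Snrnp48 (32.2, the others 26.4 to 27.3).

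In the fit without a length term, the diet effect differed between the acute and the old arm, by the test of that difference, in 12 named members. The acute effect minus the old effect was, in log2, -3.27 for Prpf8, -2.72 for Snrnp200, -2.24 for Sf3b3, -2.19 for Aqr and -0.91 for Sf3b1. It was 2.85 for Sf3b6, 2.85 for Snrpe, 2.78 for Snrpd2, 2.63 for Snrpg, 2.59 for Lsm7, 2.53 for Lsm3 and 1.5 for Snrpd3. Without old control 3 the value for Snrpe was 2.25. Once each library's length slope entered the fit, the calls of Prpf8, Sf3b6, Snrpd2, Lsm7 and Lsm3 were lost. Their values there were -1.01, 0.58, 0.72, 0.73 and 0.77 (adjusted p = 0.134, 0.127, 0.290, 0.150 and 0.0803). The calls of Snrpe, Snrpg and Snrpd3 were lost in the same fit, at 0.15, 0.52 and 0.53 (adjusted p = 0.903, 0.593 and 0.109). Aqr, Sf3b3, Snrnp200 and Sf3b1 kept their calls in that fit. Sf3b1 turned to 0.21 with the length offset (adjusted p = 0.695).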

How the results depend on the processing

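Under the alternatives, 555 of 608 values of named members in the acute comparison kept their direction and side of the threshold. So did 303 of 312 in the difference between arms, 129 of 144 for age, 126 of 136 for the old diet and 160 of 209 for the young groups. In the young groups 22 fell out of the calls, 14 entered them and 13 changed sign. Most alternatives only left out libraries or changed the filter or scaling, and each counts alike here. In the difference between arms 8 values fell out of the calls. All 8 did so when the length slope was a covariate, in Lsm3, Lsm7, Prpf8, Sf3b6, Snrpd2, Snrpd3, Snrpe and Snrpg. For age and the old diet no named member was called to begin with, so no call could be lost.

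With the length slope as a covariate, the acute comparison called 15 members, 7 long factors lower and 2 short Sm and Lsm genes higher, against 20% of all genes. The difference between arms had 6 calls and the young groups 0, with 0 short genes, against 8.99 and 0% of all genes. Age had 5 calls with this covariate, for which no share of all genes is given here. Log2 fold changes changed sign in that fit for acute Lsm14a (-0.039), Sf3a1 (0.89), Sf3a2 (2.5), Sf3b2 (0.77), Snrnp70 (0.39), Snrpb (-0.33), Snrpc (-0.15) and Snrpn (-0.040). They did so for age in Lsm3 (0.11) and Prpf8 (-0.18), for the old diet in Prpf8 (-0.060), Snrpe (0.44) and Snrpg (0.044), and for the young groups in Lsm3 (0.024), Prpf8 (-0.056) and Snrpe (0.11). With the length offset, 7 long factors were lower in the acute comparison, where 23.9% of all genes were called lower. The young groups had 4 calls with it, all 4 short, for which no share of all genes is given here. Signs changed in acute Sf3a1 (0.20), Snrpb (-0.51) and Snrpc (-0.13), age Lsm3 (0.046) and Prpf8 (-0.023), old diet Aqr (-0.021), Sf3b1 (-0.21) and Snrpe (0.15), young Aqr (-0.34), Lsm3 (0.025) and Sf3b1 (-0.37), and the difference between arms for Sf3b1 (0.21).

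Age gave 5 calls with DESeq2 and 25 with limma-voom, against 2.12 and 21.4% of all genes, and 3 in the fit on all 5 groups. The young groups gave 33 with limma-voom (16 short) and 7 (5 short) without young control 2 and old control 3. Without acute controls 2, 3 and 5 the young groups gave 0 (0 short), against 0% of all genes. For the counts of 3, 33 and 7 no share of all genes is given here. The acute index was -1.41 with classes by name alone and -2.45 with medians. Limma-voom turned acute Sf3a3 (0.080), old diet Lsm3 (0.052) and Snrpe (0.67). Acute Sf3a3 was 0.017 with DESeq2, 0.016 with its size factors and 0.0024 with the CPM filter. Leaving out the same library sets turned acute Sf3a2 (0.27), age Prpf8 (-0.071), old diet Snrpe (0.32) and young Aqr (-0.0068), and the CPM filter turned young Aqr (-0.0048). The cause was not tested.

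With the replicate numbers as a block, the acute comparison had 41 calls, 11 long factors lower and 15 short genes higher. No share of all genes is given here for that fit, and without the block it was 58.3%. The young groups had 0 calls (0 short) with the block, with young Aqr at -0.021. In the acute groups samples share only a number: correlations between same-numbered libraries were -0.026 to 0.0091. The block changed no call in the old diet comparison.

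Leaving out 1 library at a time gave 42 to 49 acute calls, 11 to 15 long factors lower, 15 to 16 short genes higher and an index of -2.30 to -2.07. It gave 34 to 44 calls in the difference between arms, 0 to 27 in the young groups with 0 to 15 short genes, and 0 in age and the old diet. With no library left out, 58.3% of all genes were called in the acute comparison and 36% in the difference between arms. For both comparisons, the shares of all genes with 1 library left out are not given here. The index difference was 0.22 to 0.78 for age, 0.21 to 0.63 for the old diet and 0.78 to 1.34 for the young groups. Values that turned sign ranged from -0.028 to 0.025 for young Aqr, -0.25 to 0.61 for age Prpf8, -0.060 to 0.064 for acute Sf3a3 and -0.53 to 0.33 for old diet Snrpe. Depth limits Lsm5 and Sf3a2, whose lowest counts were 7 and 2.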
